A study of Mus musculus with 4 samples.

Results

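Very long genes hold long introns, and in the hippocampus these introns carried many H3K27ac peaks away from promoters. The peaks described here are the 13100 rows of the replicated peak list that are under 5000 bp wide and overlap no window within 1 kb of a basic GENCODE M21 transcription start site (TSS). Their midpoint lies in an intron of a protein-coding gene of 300 kb or longer. They made up 14.7% of all 88930 replicated peaks, 19.2% of the 68273 distal peaks under 5000 bp, and 30.8% of the 42488 distal peaks in introns of protein-coding genes. The host set was 567 long genes, 2.58% of the 21938 protein-coding genes, with a summed length of 327.9 Mb. An intron was taken as sequence within a basic transcript of the gene and outside its exons, and 96 of the peaks lay in introns of more than 1 long gene.

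The tissue was labelled as a layer of the hippocampus and came from male B6CASTF1/J mice, a hybrid strain, at an age of 2 months. The 4 libraries were 1 group, with no treatment or altered allele, and came from 2 tissue pools (C and D) of 7 biosamples with 2 technical replicates per pool. Each deposited list was called on more than 1 library, so pools C and D, each with its own list, are the replicates used here. The pool lists are labelled pseudoreplicated, so they differ from the replicated list in kind as well as in pool. There is no contrast between conditions, and every value below is a description without a test.

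H3K27ac, the acetylated form of lysine 27 on histone H3, marks nucleosomes at promoters and enhancers in use. Introns of long neuronal genes are known to hold enhancers of their own gene or of neighbours, and many of the longest mammalian genes encode synaptic, adhesion and channel proteins expressed in brain. Peaks from whole tissue sum over all its cell types, so fewer cells of a type with the mark and less of the mark per cell cannot be told apart.

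The replicated list carried promoter peaks, meaning peaks of any width within 1 kb of a basic TSS, at 5 of 5 excitatory neuron markers, 4 of 4 hippocampal granule and pyramidal markers, and 4 of 4 each for astrocytes, oligodendrocytes and microglia. Endothelial markers had them at 3 of 3 genes, inhibitory neuron markers at 2 of 3 (Slc32a1 without) and oligodendrocyte precursor markers at 1 of 2 (Pdgfra without). Of all protein-coding genes, 60.5% had such a peak. The markers of other tissues, Alb, Myh6, Hoxa9 and Ins2, had none (0 of 4). The part of each cell type in the peaks was not tested. No read totals came with the lists, so depth is unknown and a stretch without a peak is one where none was detected.

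To show what the peaks of the densest genes look like in sequence, 300 bases of the GRCm38 (mm10) reference are given around the summit of the strongest peak of the 6 genes with most intronic peaks per 100 kb. The plus strand is written 5′ to 3′, the summit is base 151, and capitals mark matches, on either strand, to any of 13 motifs searched. All 6 windows lie in introns of the named gene and touch no annotated exon.
Grin2a chr16:9784195-9784494: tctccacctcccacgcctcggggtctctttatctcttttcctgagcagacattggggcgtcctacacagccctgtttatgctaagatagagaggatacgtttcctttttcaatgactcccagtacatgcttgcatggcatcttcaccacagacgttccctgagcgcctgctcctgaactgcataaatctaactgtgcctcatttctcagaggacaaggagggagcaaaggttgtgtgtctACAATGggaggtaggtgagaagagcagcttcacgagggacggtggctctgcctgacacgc
Gria1 chr11:57272075-57272374: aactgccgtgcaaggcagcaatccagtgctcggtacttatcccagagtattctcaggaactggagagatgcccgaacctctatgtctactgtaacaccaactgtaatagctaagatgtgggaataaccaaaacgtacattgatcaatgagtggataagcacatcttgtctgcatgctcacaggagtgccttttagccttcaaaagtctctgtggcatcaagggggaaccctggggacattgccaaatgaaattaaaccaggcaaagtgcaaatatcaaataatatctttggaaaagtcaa
Msra chr14:64172844-64173143: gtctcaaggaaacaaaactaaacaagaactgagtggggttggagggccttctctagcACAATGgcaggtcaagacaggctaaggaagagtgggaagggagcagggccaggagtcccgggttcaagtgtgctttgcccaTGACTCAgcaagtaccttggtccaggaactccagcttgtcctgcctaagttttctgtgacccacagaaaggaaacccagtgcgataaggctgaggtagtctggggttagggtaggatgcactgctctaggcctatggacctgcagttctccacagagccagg
Prkce chr17:86437660-86437959: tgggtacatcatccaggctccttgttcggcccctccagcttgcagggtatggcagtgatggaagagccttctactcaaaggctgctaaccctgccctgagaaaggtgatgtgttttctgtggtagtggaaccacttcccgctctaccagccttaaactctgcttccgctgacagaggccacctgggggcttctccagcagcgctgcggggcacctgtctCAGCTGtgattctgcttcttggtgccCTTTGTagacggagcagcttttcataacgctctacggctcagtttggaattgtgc
Dscaml1 chr9:45651293-45651592: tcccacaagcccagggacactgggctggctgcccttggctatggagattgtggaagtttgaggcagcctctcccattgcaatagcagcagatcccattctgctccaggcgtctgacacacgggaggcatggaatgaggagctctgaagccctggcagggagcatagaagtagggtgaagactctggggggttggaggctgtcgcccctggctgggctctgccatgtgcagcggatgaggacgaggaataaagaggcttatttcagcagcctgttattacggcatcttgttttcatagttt
Syt1 chr10:108620310-108620609: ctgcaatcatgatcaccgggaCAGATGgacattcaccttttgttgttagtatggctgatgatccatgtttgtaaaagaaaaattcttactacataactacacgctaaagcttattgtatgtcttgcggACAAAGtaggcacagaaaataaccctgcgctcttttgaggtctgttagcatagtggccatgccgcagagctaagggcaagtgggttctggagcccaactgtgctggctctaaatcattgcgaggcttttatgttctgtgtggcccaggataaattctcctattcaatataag

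In the Grin2a window the match was the Sox motif ACAATG. Msra had ACAATG and the AP-1 motif TGANTCA, Prkce had the E-box CAGCTG and the Sox motif ACAAAG read on the other strand, and Syt1 had ACAAAG and the E-box CATCTG read on the other strand. The Gria1 and Dscaml1 windows held none of the 13.

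The strongest peaks of all long-gene introns are shown next, again at their summits and with the same use of capitals. These are the 4 highest by the authors' signal among windows that could be shown.
Cacna1c chr6:118978030-118978329: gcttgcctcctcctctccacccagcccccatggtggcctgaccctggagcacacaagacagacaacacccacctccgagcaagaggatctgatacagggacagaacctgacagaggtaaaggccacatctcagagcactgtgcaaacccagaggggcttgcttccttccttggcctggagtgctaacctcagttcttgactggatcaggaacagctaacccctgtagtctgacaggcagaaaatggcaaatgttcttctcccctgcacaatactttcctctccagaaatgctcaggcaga
Gm20388 chr8:123884517-123884816: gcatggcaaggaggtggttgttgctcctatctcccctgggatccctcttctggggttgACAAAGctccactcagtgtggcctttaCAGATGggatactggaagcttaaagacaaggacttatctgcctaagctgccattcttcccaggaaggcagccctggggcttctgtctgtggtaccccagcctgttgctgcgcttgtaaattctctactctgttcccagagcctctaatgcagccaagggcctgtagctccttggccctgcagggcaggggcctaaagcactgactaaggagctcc
Trpm3 chr19:22958603-22958902: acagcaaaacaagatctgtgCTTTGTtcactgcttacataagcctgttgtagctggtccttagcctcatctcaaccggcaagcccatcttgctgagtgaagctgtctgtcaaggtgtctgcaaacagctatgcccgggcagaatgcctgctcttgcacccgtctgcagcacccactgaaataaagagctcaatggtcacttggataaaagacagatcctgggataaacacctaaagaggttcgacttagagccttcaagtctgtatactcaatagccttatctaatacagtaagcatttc
Gm20388 chr8:121585151-121585450: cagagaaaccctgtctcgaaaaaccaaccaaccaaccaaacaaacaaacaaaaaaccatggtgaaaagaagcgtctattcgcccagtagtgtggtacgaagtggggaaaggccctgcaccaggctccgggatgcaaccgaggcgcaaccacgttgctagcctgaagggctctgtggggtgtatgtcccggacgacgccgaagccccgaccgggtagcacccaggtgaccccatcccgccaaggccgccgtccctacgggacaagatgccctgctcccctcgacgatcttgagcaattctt

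The first lies in a 272 kb intron of Cacna1c, which encodes the pore subunit of an L-type calcium channel, 219 kb from the start of the gene and 102 kb from the nearest TSS. Its signal, 24.5, was the highest of the 13100. The Trpm3 peak (signal 20.0) lay 95.6% of the way along its gene, which encodes a cation channel. Gm20388 is a model of 4435 kb with 50.4% of its span in other protein-coding genes, so its peaks (signals 21.4 and 19.0) sit among other genes as well as in its own 4384 kb intron. A match to a motif was present in 6 of the 10 windows.

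Across all 13100 summit windows of 300 bases, the commonest of the 13 motifs were the E-box CATCTG, in 26.0% of windows (Wilson 95% interval 25.3 to 26.8), and the Sox motif ACAAAG, in 25.6% (24.9 to 26.4). Distal peaks in introns of shorter genes had nearly the same shares, 25.2% and 24.9%. Flank windows were placed 5 kb from the summits toward higher coordinates, whatever the strand of the gene, and outside every peak (9913 could be placed). They had 21.3% and 25.4%, and 32841 RefSeq promoters of the same length and build had 17.2% and 18.7%. The E-box CAGCTG was the motif furthest above those flanks among motifs in at least 1% of windows: 17.2% of long-gene peaks held it against 10.9% of flanks, while peaks of shorter genes held it in 20.0% and promoters in 16.3%. The homeobox core TAATTA went the other way, with 9.01% in long-gene peaks, 10.7% in flanks and 6.93% in peaks of shorter genes.

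AP-1 sites (TGANTCA), the targets of Fos and Jun dimers, were in 10.4% of long-gene peaks (9.89 to 10.9), 9.15% of other intronic peaks and 9.38% of flanks. ACAATG was in 17.4%, 15.1% and 17.7% of the same sets, and the E-box CATATG in 7.98%, 6.07% and 9.34%. The rarer motifs were the CRE TGACGTCA (0.229%, against 1.79% of promoters), RFX GTTGCCATG (0.420%), Mef2 (0.832%), NFI in its full palindrome (5 windows), the Egr motif GCGGGGGCG (4 windows, against 2.91% of promoters) and the CTCF core (2 windows). A Mef2 match can contain TAATTA, and the open bases of an NFI match can complete an E-box or a Sox motif. Base composition differed between the sets: the median GC content was 45.3% in long-gene peaks, 47.7% in other intronic peaks and 42.0% in flanks, and its part in the motif shares was not tested. Matches are letters in a window and not sites of binding.

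Long genes differed widely in how many intronic peaks they held. The median over the 567 genes was 2.69 peaks per 100 kb of gene, with quartiles of 0.875 and 6.22 and a 95th percentile of 15.2. At one end, 66 genes had 10 or more per 100 kb and 14 had 20 or more. At the other, 158 (27.9%) had fewer than 1. The densest 57 genes covered 7.52% of the summed length and held 30.1% of the gene and peak pairs, while the sparser 284 held 13.4%. The lists of the single pools gave medians of 2.79 (C) and 1.42 (D), the latter from a list of 8326 such peaks against 14224 in pool C. The order of the genes was close in both, with a Spearman correlation of 0.955 over 567 genes, and 48 of the 57 densest genes were the same in both pool lists. The pool C and pool D lists share the annotation and the peak calling, and their depths are unknown.

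**Figure D1:**
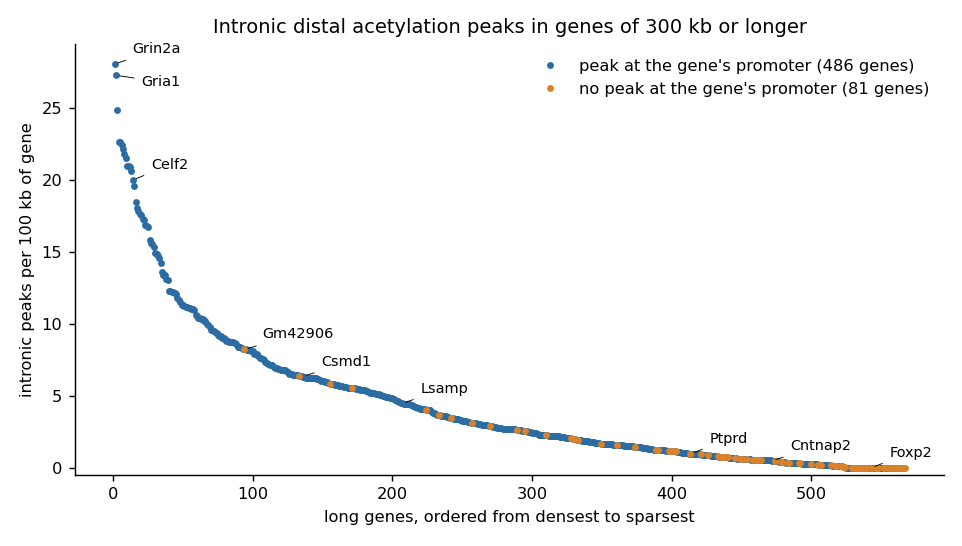
Intronic distal peaks per 100 kb of gene (vertical axis) in the 567 long genes, ordered by that density (horizontal axis), from the replicated list. Blue points are the 486 genes with a promoter peak and orange points the 81 without. Density falls from 28.1 in Grin2a to 0 in 43 genes, and no orange point lies above 8.23.

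The densest gene of the replicated list was Grin2a, which encodes the GluN2A subunit of NMDA receptors. It held 120 intronic peaks in 428 kb (chr16:9567898-9995560), or 28.1 per 100 kb with an exact Poisson 95% interval of 23.3 to 33.6. Pool C gave 30.4 and pool D 27.6. Intervals of this kind cover the counting of peaks only. Its peaks covered 41.1% of the gene and no stretch longer than 22.7 kb was free of peaks. Gria1, which encodes the GluA1 subunit of AMPA receptors, held 87 peaks in 319 kb (chr11:57011387-57330244), or 27.3 per 100 kb (21.9 to 33.7), with 35.8 in pool C and 27.6 in pool D. Its longest peak-free stretch was 5.94 kb. The intervals of these genes overlap, so their order is not resolved.

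Msra, a repair enzyme for oxidised methionine with no role particular to neurons, came next with 83 peaks in 333 kb (24.9 per 100 kb, pool C 27.3, pool D 31.5). Prkce, the epsilon isoform of protein kinase C, held 111 (22.6, pool C 22.9, pool D 15.7). Dscaml1, a cell adhesion protein of the immunoglobulin superfamily, held 74 (22.6, pool C 24.8, pool D 17.7), and Syt1, the calcium sensor of fast transmitter release, held 115 (22.4, pool C 26.3, pool D 15.2). All of these exceeded the 95th percentile of the long genes in the replicated list, and pool D was below pool C in Prkce, Dscaml1 and Syt1 and above it in Msra.

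The other densest genes ran from 22.2 down to 19.6 per 100 kb. They were Btbd9 (80 peaks), the neuronal zinc finger gene Myt1l (86), the NMDA receptor subunit gene Grin2b (99), Kalrn, an exchange factor for small GTPases at dendritic spines (127), and Arid1b, a subunit of the BAF chromatin remodeller (74). Below them came Gabbr2, a subunit of the GABA-B receptor (69), Galnt17, of the family that starts O-linked glycans (90), the RNA-binding gene Celf2 (194) and Slit3, a secreted guidance ligand (115). Pool C values for these 9 ran from 21.5 in Celf2 to 27.0 in Gabbr2, and pool D values from 12.8 in Galnt17 to 18.6 in Btbd9. All 15 densest genes had a promoter peak, and 13 of them were also among the 15 densest in the pool D list, where Tcf4 and Msi2 took the other places.

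**Figure D2:**
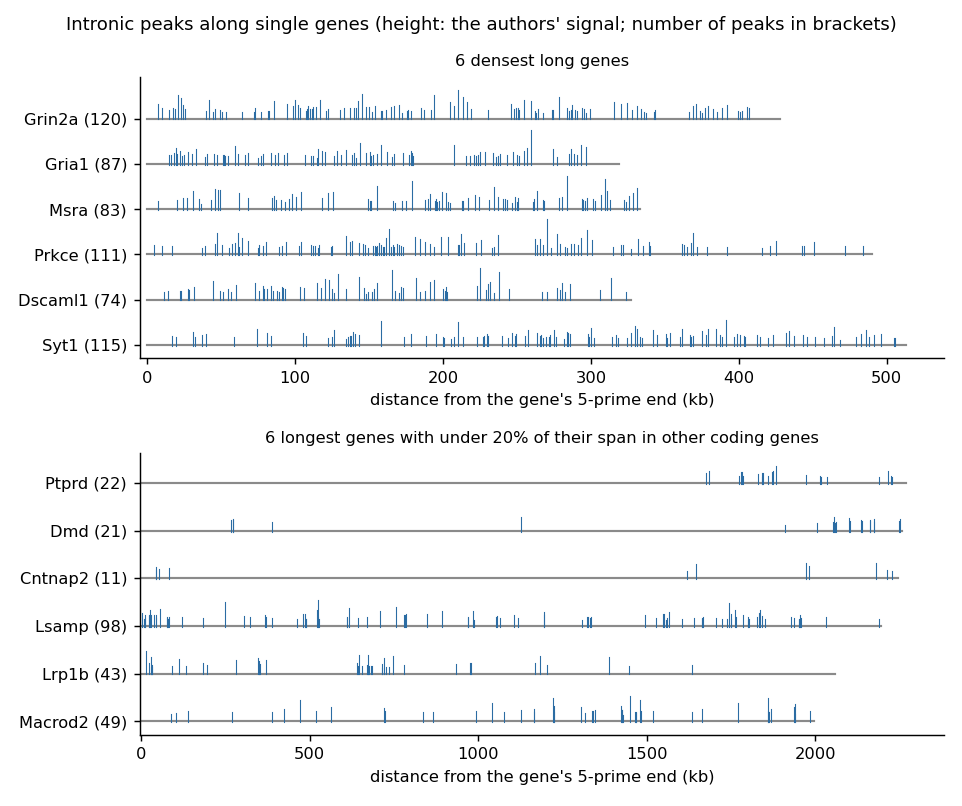
Position of each intronic peak as distance in kb from the 5-prime end of its gene (horizontal axis) for 12 genes, with tick height in proportion to the authors' signal. The 6 densest genes (top) hold 74 to 120 peaks spread over most of their length, while the 6 longest with under 20% of their span in other coding genes (bottom) hold 11 to 98, and Cntnap2 has a stretch of 1536 kb without a peak.

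The 10 longest gene models fell on both sides of the median of all long genes, with 5 above it and 5 below. The 2 longest, Gm20388 (4435 kb, 7.10 per 100 kb) and the M21 model of Fgfr2 (2961 kb, 5.91), each have over 50% of their span in other protein-coding genes (50.4% and 53.2%), so their values include introns shared with those genes. Among the rest, Dlg2, a postsynaptic scaffold of 1973 kb, held 142 peaks (7.20, pool C 7.96, pool D 4.36). Csmd1, a large transmembrane protein with complement control domains, held 104 (6.33, pool C 6.76, pool D 4.02). Lsamp, a GPI-anchored adhesion protein of neurons, held 98 (4.46, pool C 4.82, pool D 2.28). Macrod2, with 2.45, and the LDL receptor-related gene Lrp1b, with 2.09, were below the median of all long genes.

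Dmd, the dystrophin gene, held 21 peaks in 2257 kb (0.930 per 100 kb, pool C 1.02, pool D 0.310), of which 23.8% were in its 5-prime part, before the midpoint of the gene. Cntnap2, an adhesion protein of the neurexin superfamily, held 11 peaks in 2245 kb (0.490, pool C 0.445, pool D 0.267), although its promoter carried a peak of signal 17.7. Ptprd, a receptor phosphatase of the synapse, is recorded as 2271 kb and held 22 peaks (0.969). Its basic transcripts span only 653 kb, and over that span the density was 3.37.

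Of the 567 long genes, 43 (7.58%) held no intronic peak by this rule. In the pool C list 45 had none, and in the pool D list 88. Of the 43, 34 had no such peak in either pool list, 9 had one in the pool C list and 0 had one in the pool D list. By comparison 18.3% of genes of 100 to 300 kb and 74.9% of those under 100 kb held none, with less intron per gene. A promoter peak was absent from 24 of the 43 empty genes and present in 19. Of all 567 long genes 486 (85.7%) had one, beside 80.4% of genes of 100 to 300 kb and 60.5% of all protein-coding genes.

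The longest empty genes were Cdh18 (925 kb), a classical cadherin with a promoter peak, and Spag16 (898 kb), a gene of the sperm and ciliary axoneme with no peak of any kind over its length. With 0 peaks, the exact Poisson upper limit was 0.399 per 100 kb for Cdh18 and 0.411 for Spag16, and pool C listed 1 peak in each. These limits are over the recorded length, of which the basic transcripts of Cdh18 span 438 kb. Other empty genes of over 500 kb were Mgat4c (710 kb), Galnt13 (682 kb), Esrrg (606 kb), B3galt1 (557 kb), Foxp2 (541 kb), Dach2 (539 kb) and Skint5 (522 kb). Foxp2 is a forkhead factor of other brain regions and Skint5 belongs to an epithelial and thymic family. Foxp2, Dach2 and Skint5 had no peak of any kind over their whole span. The basic transcript of B3galt1 spans a small part of the recorded length, so little of that gene could hold a member.

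Some genes had a promoter peak and no intronic peak. Galnt13, which encodes a glycosyltransferase, had a promoter signal of 15.8 and 681 kb without a peak. Brinp3 had 15.2 and 403 kb, Wdpcp 18.6 and 326 kb, and Cux1 10.3 and 318 kb. Nxph1, which encodes a ligand of neurexins, had a weak promoter peak of 3.21, below the median signal of the intronic peaks (3.70), and 299 kb. The pool C list and the list called on both pools together each had 1 intronic peak in it. Reln, the secreted matrix protein of Cajal-Retzius cells and interneurons, had neither a promoter peak nor any peak along its 460 kb. Cux1 had 4 such peaks in the list called on both pools together and 1 in the pool C list. Brinp3, Wdpcp, Cux1 and Reln were chosen after their values were seen.

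Peak-free stretches were common even in genes with peaks. In 379 long genes at least 100 kb in a row lay without any peak, and the median over all 567 of the longest stretch was 148 kb. After Cntnap2, long ones were in Fhit (1321 kb), Il1rapl1 (1236 kb), Gpc5 (1079 kb) and Erbb4 (1013 kb). Of 770 introns of 100 kb or longer, 169 (21.9%) held no peak, the longest of them being an intron of Gpc5 of 736 kb. The densest of these introns was in Gria1, with 56 peaks in 171 kb (32.8 per 100 kb), followed by Prkce with 57 in 185 kb (30.9), Celf2 with 32 in 104 kb (30.7) and Grin2a with 70 in 230 kb (30.4).

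Genes grouped by function differed in their medians, which are given beside the 2.69 of all long genes. Of 13 long glutamate receptor genes 9 were above that value, with a list median of 4.32 (pool C 4.59, pool D 2.88). The spread within the family was wide. Grin2a, Gria1 and Grin2b had 28.1, 27.3 and 21.5, and the kainate receptor gene Grik4 had 10.3. The metabotropic receptor gene Grm8 (0.116) was lowest, and the AMPA receptor gene Gria4, at 0.529, held 2 peaks against 87 in Gria1.

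RNA-binding and splicing genes had the highest list median, 11.7 (pool C 13.4, pool D 8.40), over only 6 long genes. Celf2 (20.0), Rbfox3 (18.5), Msi2 (15.8) and Rbfox1 (7.60, with 116 peaks) were far above the single peak of Rbms3 (0.0946). Kinase, phosphodiesterase and phospholipase genes had a median of 6.82, with 12 of 17 above the median of all. Prkce led them, Prkcb had 15.6, Mapk10 14.8 and Prkca 13.4, and Pde1c had no intronic peak at all.

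Calcium and sodium channel, ryanodine receptor and TRP genes had a median of 6.22, with 10 of 12 above 2.69. The ryanodine receptor gene Ryr2 had 12.3, Cacna1c 11.8 and Cacna1e 11.1. The only members below 2.69 were Nkain3, lowest at 2.12, and Nkain2 at 2.41, which the list holds though they do not encode channels. Nalcn came next at 2.85. Among synaptic scaffold, vesicle release and ankyrin genes 17 of 20 were above, with a median of 5.74. Syt1 was the highest, Dlgap1 had 15.4 and Ank3 13.4, and Unc13c was lowest at 0.409. Potassium channel genes had a median of 2.73 in the replicated list. In the pool lists it was 2.11 (C) and 0.916 (D), below the 2.79 and 1.42 of all long genes. They ran from 11.0 in Kcnq3 to 0.138 in Dpp10.

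Transcription factor and coregulator genes had a median of 3.39, with 16 of 27 above 2.69. Tcf4, the E-protein, was highest in this list with 61 peaks (17.6 per 100 kb, pool C 18.2, pool D 30.1). Its pool D value was above its pool C value, as also in Zbtb20, a factor of hippocampal projection neurons (10.4, pool C 10.7, pool D 12.4). Nfia had 14.7. Esrrg and Foxp2 had none. Glial genes had a median of 3.21 over 9 genes. The bicarbonate transporter gene Slc4a4, of astrocytes, had 16.7 and the matrix gene Tnr 12.3, while the glypican Gpc5 had 0.279.

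Cadherin, protocadherin and catenin genes had a median of 1.28 with 4 of 14 above 2.69, from 5.84 in Ctnnd2 to 0 in Cdh18. Trans-synaptic organisers had 1.71 with 9 of 22 above, from 10.2 in Tenm2 to 0.280 in Cntnap5b. The neurexin gene Nrxn3 held 46 peaks (2.85). Immunoglobulin-superfamily genes had a median of 2.68 (pool C 3.22, pool D 1.68, beside 2.79 and 1.42 for all long genes), with 9 of 18 above 2.69, Dscaml1 at 22.6 and Cntn6 at 0. The CSMD and LDL receptor-related list had 2.09, with Sorcs1 lowest at 0.560. Axon guidance and neuregulin genes had 2.17, from 19.6 in Slit3 to 0.187 in Nrg1, whose 874 kb intron held 2 peaks.

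The dystrophin complex was the lowest list, with a median of 0.930, 0 of 5 genes above the median of all, and 1.44 in its highest member, Utrn. Sgcz (0.0878) was lowest, with a single peak. Genes of sensory cells, muscle and matrix had 1.65, with 5.64 in Myo3b as the highest, and 3 of 8 had a promoter peak. The lists were written with earlier results of these data known, and their medians describe them without a test.

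**Figure D3:**
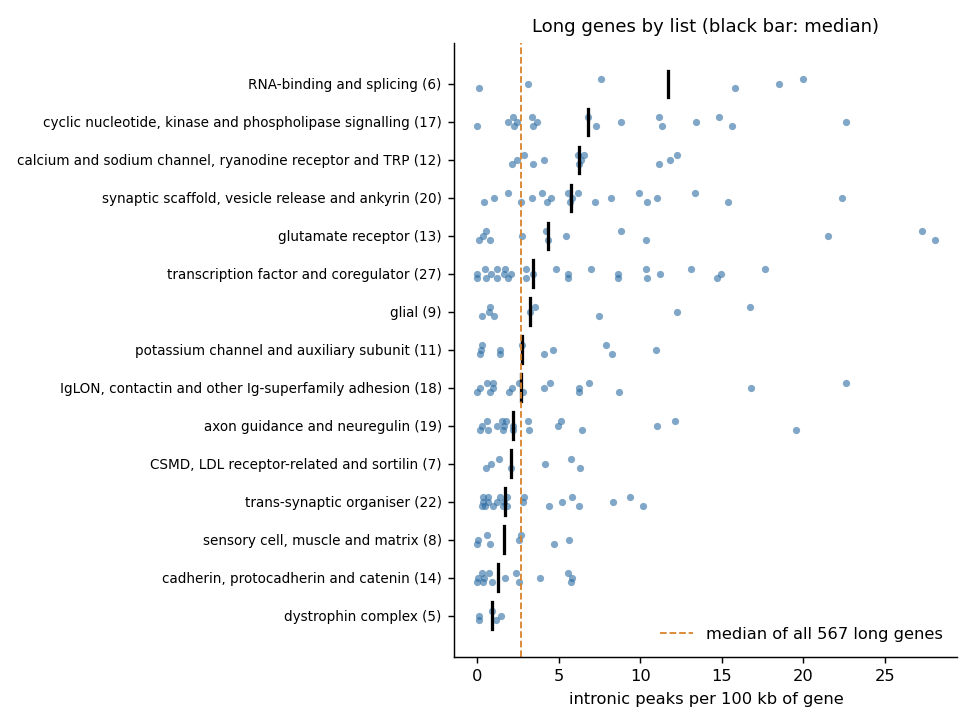
Intronic peaks per 100 kb of gene (horizontal axis) for the long genes of each of 15 lists, 1 point per gene, with the number of long genes in brackets. Black bars are list medians, from 11.7 for RNA-binding genes to 0.930 for the dystrophin complex, and the dashed line is the median of all long genes, 2.69.

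Long genes with a promoter peak held most of the intronic peaks. A promoter peak was present in 486 of the 567 (85.7%), beside 80.4% of genes of 100 to 300 kb and 60.5% of all protein-coding genes. With a promoter peak, long genes had 4.86 intronic peaks per 100 kb of eligible intron, meaning intron outside the TSS windows, and without one 1.03. That is a ratio of 4.73 (pool C 4.06, pool D 4.63). The medians per 100 kb of gene were 3.26 and 0.535. Shorter genes showed a gap of the same kind: in genes of 100 to 300 kb the densities were 6.66 with and 1.54 without. Among the 486, density and the highest promoter signal had a Spearman correlation of 0.491, given as a description since both come from 1 list.

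Some genes without a promoter peak were still above the median of all long genes. The highest was Gm42906, with 30 peaks (8.23 per 100 kb), but 46.7% of its span lies in other protein-coding genes. Arhgap15, a Rac GTPase-activating protein of blood cells, held 26 peaks in 647 kb (4.02, pool C 4.33, pool D 3.86) with none of its span in other coding genes, and 73.1% of its peaks overlapped a peak of both pool lists. Chst9, a sulfotransferase gene, held 18 (5.84 in each of the replicated and the pool D lists). The phosphodiesterase gene Pde11a held 12 (3.43). Each was chosen after its values were seen.

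Per unit of intron, very long genes were less dense than medium ones. The 567 genes had 4.37 distal peaks per 100 kb of eligible intron, against 5.71 in genes of 100 to 300 kb and 4.36 in genes under 100 kb. The ratio to medium genes was 0.766 (pool C 0.763, pool D 0.755). Among the long genes density fell with each length class: 5.38 for 300 to 500 kb (337 genes), 4.13 for 500 kb to 1 Mb (171 genes) and 3.12 for 1 Mb or longer (59 genes). Both pools gave that order, with 5.88, 4.45 and 3.39 in C and 3.51, 2.57 and 1.94 in D. It held within genes with a promoter peak, at 6.06, 4.73 and 3.31. Gene by gene the relation was loose, with a Spearman correlation of -0.107 between length and density over 567 genes, and none of the 59 longest was empty.

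**Figure D4:**
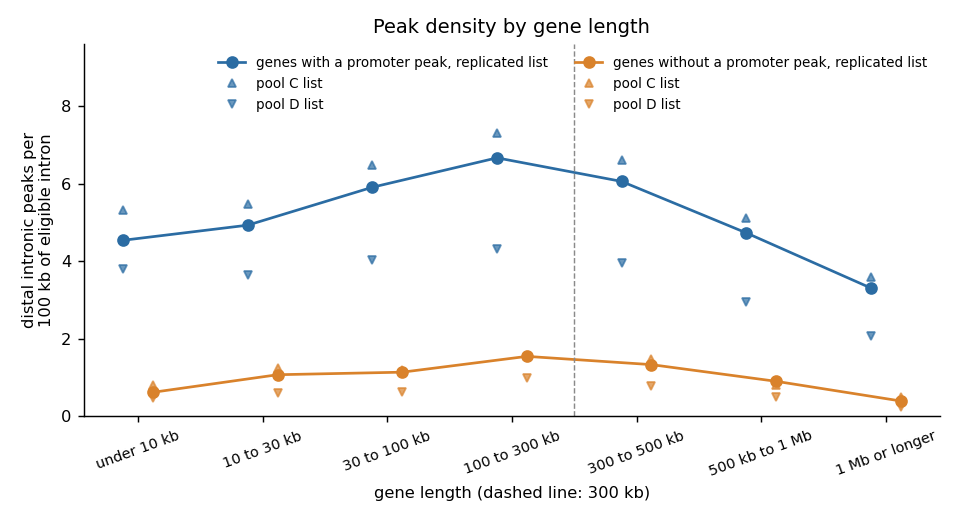
Distal intronic peaks per 100 kb of eligible intron (vertical axis) by gene length class, for genes with (blue) and without (orange) a promoter peak. Circles are the replicated list, upward triangles pool C and downward triangles pool D, and for genes with a promoter peak the density is highest at 100 to 300 kb (6.66) and lowest at 1 Mb or longer (3.31).

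The length limit itself cut through a continuous range. Just inside it were Kcnq3 (300.3 kb, 33 peaks), Pam (300.5 kb, 12) and Nxph1 (300.6 kb, 0), and just outside it Jazf1 (299.8 kb, 17), Akap13 (299.1 kb, 17) and Atp2b2 (298.8 kb, 25). By width, the widest peak kept was 4999 bp and the narrowest left out was 5003 bp, and 238 wider intronic distal peaks of long genes were left out.

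Over all long genes, density varied little with position along the gene. With each gene cut into 10 bins of equal length, the first bin at the 5-prime end had 4.16 peaks per 100 kb of eligible intron and the others 4.03 to 4.55. The ratio of the first bin to the other 9 was 0.947 in the replicated list, 0.959 in pool C and 0.950 in pool D. Peaks touching a TSS window were left out, but intron under them beyond the window still counted as eligible. This can lower the density near gene starts, by an amount that was not measured. In kb from the gene start, the density was 5.01 within 10 kb, 4.63 at 10 to 25 kb and 4.80 at 200 to 300 kb. It was 4.28 at 300 to 500 kb, 3.55 at 500 to 1000 kb and 3.92 beyond, where only the longer genes reach. Pool D fell from 4.23 within 10 kb to 2.68 at 10 to 25 kb, and pool C had 5.48 and 5.25. The first intron of the widest transcript held 22.4% of the peaks in 22.1% of the eligible length, a density ratio to later introns of 1.02. Of 348 genes with at least 10 peaks, 166 had most of them in the 5-prime part and 169 in the 3-prime part.

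The densest 57 genes had a shallow arch, with 14.4 peaks per 100 kb in the first bin, 18.7 in the fourth and 14.1 in the last, and pools C and D both had their ends below their middle. In genes of 1 Mb or longer the last 3 bins were the densest of the replicated list, with 3.69, 3.87 and 3.77. The first had 3.06 and the fifth 3.25. Pool C had 3.96, 3.86 and 4.33 in the last 3 and 3.25 in the first. Pool D had 2.41, 2.18 and 2.36 against 1.63, but its highest bin was the second, at 2.51. In the 81 genes without a promoter peak, which held 398 gene and peak pairs, the density was 0.923 in the first bin, 0.618 in the second and 1.78 in the last. Pool C went from 1.01 in the first bin to 1.56 in the last, and pool D from 0.584 to 1.15. Single genes departed from evenness in both directions. Slit3 had 72.2% of its 115 peaks in the 5-prime part and Lrp1b 86.0% of 43, while Arid1b had 32.4% of 74 and Macrod2 28.6% of 49. Signal changed little along the gene, with medians per bin of 3.61 to 3.82.

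**Figure D5:**
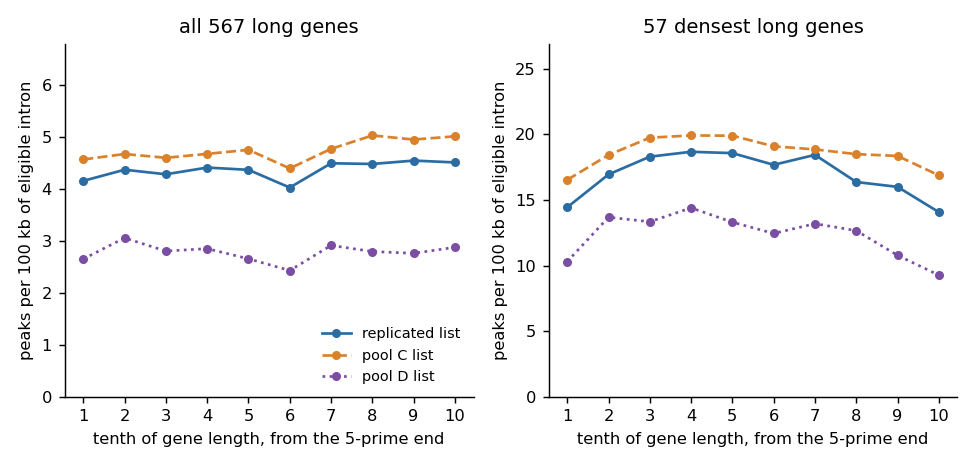
Intronic peaks per 100 kb of eligible intron (vertical axis) in each of 10 equal bins of gene length from the 5-prime end (horizontal axis), for all 567 long genes (left) and the 57 densest (right). Lines are the replicated list and the lists of pools C and D, and on the left the replicated list stays between 4.03 and 4.55.

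Peaks were also grouped into runs by the gaps between them. With runs defined as 5 or more peaks of a gene with gaps of at most 10 kb, 6485 peaks (49.5%) lay in 651 runs over 253 genes, with a median of 7 peaks over 25.8 kb. Pool C gave 53.9% and pool D 42.3%. Gaps shrink as peaks per 100 kb rise, so this share is not separate from density. No share for other intronic peaks is given beside it. The largest run held 68 peaks over 202 kb of Prkce (chr17:86204298-86406105), followed by 60 over 179 kb in Grin2a and 58 over 184 kb in Msra. Celf2 held 3 runs of 44 to 49 peaks. The median gap between neighbouring peaks of a gene was 3649 bp.

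As single peaks, those of long genes resembled other intronic peaks. The median width was 858 bp (864 bp in introns of shorter genes) and the median signal 3.70 (3.76), while intergenic distal peaks had 793 bp and 4.05. A peak of both pool lists overlapped 43.4% of long-gene peaks (Wilson 42.5 to 44.2), beside 43.2% of other distal intronic peaks and 48.8% of intergenic ones. Another 36.4% overlapped a pool C peak alone, 1.85% a pool D peak alone and 18.4% neither. Peaks in both lists were wider and stronger (1485 bp, signal 4.97) than those in neither (408 bp, 2.83). The peaks of long genes were further from any TSS, as the gene length sets: 36.9 kb in the median against 15.1 kb, with 17.0% at 100 kb or more.

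The hosts of the 10 strongest peaks were Cacna1c, Gm42416, Gm20388 (3 peaks), Trpm3, Myo5b, Fam172a, Arid1b and Arhgef28, with signals from 24.5 to 17.9. The Gm42416 peak also lay in introns of the overlapping models Gm37013 and Gm37388. Each of the 10 overlapped a peak in both pool lists. The Myo5b peak (19.5) was 4398 bp wide with its midpoint in an intron of 0.999 kb, so most of it lay outside that intron. It lay within 1 kb of a start of a transcript outside the basic set, as did 307 (2.34%) of all the peaks. Those 307 had a median signal of 4.40 against 3.70 for the others. The Fam172a peak lay 8.41 kb from the nearest TSS and 99.4% of the way along the gene. Arid1b, one of the densest genes, held its peak of 18.9 in a 116 kb intron, 78.0 kb from any TSS.

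With the genes split in 4 by density, the densest 142 genes held 8057 peaks, and 44.4% of these were in both pool lists. The sparsest 141 held 273, of which 32.2% were. Median widths were 905 and 610 bp, and median signals 3.70 and 3.61. Promoter peaks were present in 98.6% and 61.7% of these genes.

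The X chromosome was the sparsest. Its 26 long genes had 0.531 peaks per 100 kb of eligible intron (pool C 0.610, pool D 0.216) against 4.58 on the autosomes (4.97 and 2.92), 10 of them were empty, and the highest value was 2.99. The animals were male, and the part of X copy number in these values was not tested. On the autosomes the density ran from 2.85 on chromosome 1 to 7.36 on chromosome 16, where Grin2a and Kalrn lie.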

How the data were processed

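The authors deposited 4 narrowPeak files on mm10, per the descriptive text filed with the samples. They are the replicated list, a list called on both pools jointly, and 1 list each for pools C and D. The joint list and the pool lists are labelled pseudoreplicated. Their values therefore differ from those of the replicated list by kind of list as well as by pool. For the aligner and the peak caller, the names were not given in the sources used here. Each deposited signal is the authors' own value, of unstated scaling, and the −log10 q of each deposited peak was read from its narrowPeak column. Fragments were 200 to 600 bp, per the labels.

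Genes, exons and TSSs came from GENCODE M21, and windows from the GRCm38 reference, which is not the strain of the animals. No peak ended beyond its chromosome. Counts, densities, exact Poisson and Wilson intervals (95%) were computed with Python 3.11.15, numpy 2.4.6 and scipy 1.17.1, with figures from matplotlib 3.10.9. The assignment of peaks to introns was tested on simulated data. Intervals cover counting only, since read depth is unknown.

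Named genes were the 15 densest, the 10 longest, the 10 longest empty, the hosts of the 10 strongest peaks, and the highest and lowest gene of each list, and any other gene was named after its values were seen. Peaks, gene lists and this rule were chosen with earlier results of these data known. Sequence windows overlapping an exon, or on chromosome 18, were passed over, a choice made after seeing the data. Alternatives were other peak lists, stricter peaks, other windows, width and length limits, and 5 kb and 20 kb gaps. Some genes that this rule names are not reported here.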

Additional observations from a re-analysis of the deposited data

How the results depend on the processing

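No paired analysis was possible because there is 1 group and no test. Read depth, unknown here, limits every count of peaks and every empty gene. With the list from both pools together, the ratio to medium genes was 0.758, the 5-prime ratio 0.981 and the share in runs 56.5%. Leaving out pool C or pool D, by using the list of the other pool, gave 8326 to 14224 peaks and medians of 1.42 to 2.79. Ratios to medium genes were 0.755 to 0.763, and 45 to 88 genes were empty. The 5-prime ratios were 0.950 to 0.959, with 42.3% to 53.9% in runs. Promoter ratios were 4.06 to 4.63, with genes grouped by the promoter peaks of each pool list. Of the 15 densest genes 14 remained with both pools together, 15 in the list of pool C and 13 in that of pool D.

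A −log10 q of 5 or more gave 51.6% in both pool lists and 43.9% in runs. Only peaks above the median signal gave 4516 peaks, a median of 0.841, ratios of 0.741 (medium genes) and 0.922 (5-prime), 100 empty genes, 87.4% in both pool lists and 17.5% in runs. A TSS window of 2.5 kb gave a 5-prime ratio of 0.925. With no width limit it was 0.939, with 44.4% in both pool lists and 51.1% in runs. A limit of 200 kb gave ratios of 0.824 (medium genes), 0.911 (5-prime) and 4.22 (promoter) and 88 empty genes. At 500 kb there were 6720 peaks, 11 empty genes, ratios of 0.650 (medium genes) and 5.22 (promoter) and 45.5% in runs. An overlap of 50% of the peak put 29.6% in both pool lists. Gaps of 5 and 20 kb put 30.6% and 69.8% in runs.

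Chosen after seeing the data, leaving out peaks near any annotated start gave a ratio to medium genes of 0.789 and 48.5% in runs. Without gene models that have 20% or more of their span in other coding genes the ratios were 0.745 (medium genes), 0.965 (5-prime) and 5.34 (promoter). With length taken over basic transcripts the 5-prime ratio was 0.983 and the promoter ratio 5.41. Among genes with a promoter peak the ratio to medium genes was 0.730. No ratio crossed 1 under any of these.

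A 500 bp window, being longer, raised the motif shares to 17.7% (AP-1), 0.351% (CRE), 26.6% (CAGCTG), 40.8% (CATCTG), 13.3% (CATATG), 27.3% (ACAATG), 39.2% (ACAAAG), 0.0840% (Egr), 1.56% (Mef2), 0.947% (RFX), 0.0763% (CTCF core) and 15.8% (TAATTA). A window at the peak midpoint gave 27.0% (CATCTG), 8.52% (CATATG), 26.5% (ACAAAG), 0.557% (RFX) and 10.2% (TAATTA), and the cause of these shifts was not tested.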
